A study of Mus musculus with 2 samples.

Results

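Transcripts that GENCODE annotates as targets of nonsense-mediated decay were examined where they were abundant in mouse cortex. A transcript was kept if its annotated type was nonsense_mediated_decay and its expected count, an estimate of the reads it gave, was at least 50 in the alignment-based transcript table of each mouse. The rule kept 1077 of 7186 decay-type transcripts (15.0%), out of 141767 annotated transcripts in all. They belong to 976 genes. The members were chosen by these expected counts, so their abundance is described and not tested.

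Total RNA came from the left cerebral cortex of 2 male B6CASTF1/J mice, an F1 hybrid of the B6 and CAST strains, aged 36 days and with no treatment named. A single stranded library per mouse started from 300 ng of material, had its ribosomal RNA reduced and carried ERCC spike-in RNAs. They are numbered as biological replicates 1 and 2, although a single donor identifier is recorded for both, so the spread between them may not be that of separate animals. Both mice form 1 group, so no comparison between conditions was possible, and an exact permutation test over 2 mice cannot give a p under 0.5.

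Nonsense-mediated decay is a quality-control pathway of translation. A ribosome that stops upstream of an exon junction complex, the protein mark left where an intron was removed, recruits UPF1 and its partners, and the RNA is then degraded. Many splicing factors use the pathway to limit their own level: they promote inclusion of an exon with an early stop, a poison exon, in their own RNA. The type given here is an annotation from transcript structure. Decay itself was not measured, and a count is what remained at the time of extraction.

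The sequences below show 1 form such transcripts take, a stop in an extra exon, found in 191 of the 1077. In 533 the stop lies inside the coding exons of the leading protein_coding transcript instead. For each, the last 27 coding bases (lower case) and the stop codon (capitals) are printed 5′ to 3′, from the GENCODE M21 transcript sequences on mm10. All 10 stops lie in an exon that the most abundant protein_coding transcript of the gene does not have. They are 10 of 31 eligible transcripts among the 10 most abundant and the gene lists, taken from the 18 whose stop lies in an extra exon: the SR protein, Tra2 and hnRNP members first, then the most abundant.
Srsf3-201: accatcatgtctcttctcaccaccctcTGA
Srsf6-201: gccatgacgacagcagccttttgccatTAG
Srsf9-205: cctgggttggagattacggattcacagTAG
Tra2a-202: aaaaaattgaacagaagattggtcagaTAG
Tra2b-206: aatgagtatttgaagctcaggaataagTGA
Hnrnpll-203: ctgaaacttcttgaaagaagcccacttTGA
Cbarp-212: ttcgagtccgactcatctctgtttcctTAA
Atp2b2-206: cttcctcctgctgcagctgggcagggcTAG
Nrxn3-208: atcttcatctcctgtgtagtacactcaTAG
Atp5f1-203: aaccaaatctggtcctgtgaagagcagTAA

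The exon with the stop of Srsf3-201 is exon 4 of 7, at chr17:29039454-29039909 on the plus strand, and is 456 nt long. In Srsf6-201 it is exon 3 of 7, at chr2:162932815-162933082 on the plus strand (268 nt). In Srsf9-205 it is exon 2 of 6, at chr5:115328347-115328704 on the plus strand (358 nt). All 3 genes encode SR proteins, which bind exons and promote their splicing. Both Tra2 paralogs, which encode related activators, carry it as exon 2, at chr6:49252803-49253108 on the minus strand in Tra2a-202 (306 nt) and chr16:22258986-22259261 on the minus strand in Tra2b-206 (276 nt). In Hnrnpll-203, from a regulator of alternative splicing, the exon is 83 nt long, exon 7 of 14, at chr17:80044940-80045022 on the minus strand. The other 4 come from a regulator of calcium channels, a calcium pump, a synaptic adhesion molecule and an ATP synthase subunit. Their exons lie at chr10:80136690-80136743 on the minus strand in Cbarp-212 (54 nt) and chr6:113751564-113751690 on the minus strand in Atp2b2-206 (127 nt). In Nrxn3-208 the exon is at chr12:90321936-90322641 on the plus strand (706 nt), and in Atp5f1-203 at chr3:105957870-105958036 on the minus strand (167 nt). Of the bases printed for Atp2b2-206, 5 of the 27 coding bases lie in that exon and the rest in the exon before it. Of these exons, 2 are only partly particular to their transcript: 103 bases of Srsf6-201 and 15 bases of Cbarp-212 lie outside every protein_coding transcript of the gene, fewer than the exon holds.

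Total expected counts were 29915463 in replicate 1 and 27988085 in replicate 2. All 8 cortex marker genes were detected, among them the glutamate transporter gene Slc17a7 at 33019 and 29010 counts, and 2 of 5 marker genes of other regions reached 50 counts in both mice. These were Ttr of the choroid plexus at 184 and 107 and Tcf7l2 of the thalamus at 246 and 223, while the cerebellar granule cell gene Gabra6 had 3 and 1. Decay-type transcripts held 1.59% ± 0.0261 of all expected counts (SD, n = 2), and the 1077 abundant ones held 87.6% ± 0.793 of that. Retained-intron transcripts held 3.46% ± 0.579. Of the other decay-type transcripts, 2586 were at 0 in both mice, and 445 reached 50 in 1 mouse only.

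Most of the abundant decay-type transcripts were modest in level. Their median expected count was 157 ± 6.04 and their median TPM (a transcript's share of all transcripts, which allows for length) 3.93 ± 0.290 (SD, n = 2). A mean count of 50 to 100 was found for 321, 100 to 200 for 321, 200 to 500 for 261, 500 to 1000 for 103 and above 1000 for 71. The 10 most abundant held 17.0% ± 1.22 of the counts of the whole set. At the threshold, Acbd4-205 (54.2 and 50.2 counts in replicates 1 and 2), Slc25a37-204 (50.2 and 67.4) and Erlec1-202 (50.3 and 74.2) were just inside. Parp11-209 (49.9 and 60.5), Nsun3-202 (49.9 and 141.0) and Dusp11-207 (49.8 and 72.1) were just outside.

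Atp2a2-203 was the most abundant, from the gene for SERCA2, the pump that returns calcium to the endoplasmic reticulum, at 25444 and 20599 counts in replicates 1 and 2. It held 67.3% and 66.8% of the TPM of its gene, a share given as IsoPct in the deposited tables, against 16.7% and 19.8% for the highest protein_coding transcript. Its stop is the same as that of the protein_coding transcript, and 1 junction lies downstream, 1258 nt after the stop. No splice difference was found before the stop, and 448 of its bases lie in no protein_coding transcript of the gene.

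Mobp-204, from a gene for a protein of compact myelin, also shares the stop of the coding transcript. It had 4899 and 3754 counts and held 58.2% and 51.9% of its gene, with 2039 bases outside the protein_coding transcripts. Tspan5-207, from a tetraspanin membrane protein gene, had 4846 and 3834 counts and 69.7% and 65.8% of its gene. Its highest protein_coding transcript held 15.6% and 17.9%. In both mice these 3 transcripts exceeded every protein_coding transcript of their genes.

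Cbarp-212 had 5280.1 and 4741 counts and 45% and 44.1% of its gene. Pip5k1c-208, from a kinase that makes the membrane lipid PIP2 at synapses, had 5146 and 4726 counts and held 34.7% and 33.4%. Its stop lies inside the coding exons of the main transcript in another frame, with 14 junctions downstream. Atp2b2-206, from the gene for the plasma membrane calcium pump PMCA2, had 5184 and 4428 counts but held only 10.7% and 10.5% of its gene, where the highest coding transcript held 37.4% and 36.9%. Ptprn2-204, from a dense-core vesicle protein gene, had 4333 and 4132 counts and 43.6% and 42.5% of its gene. Ddx5-208, from an RNA helicase gene, retains an intron, with 1265 bases outside the coding transcripts. It was the 1 transcript of the top 10 with more counts in replicate 2 (4571) than in replicate 1 (3960.3), at 23.9% and 19.9% of its gene.

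Ppia-201 and Eif4a2-210 complete the top 10 and are uncertain. Ppia, which encodes cyclophilin A, and Eif4a2, which encodes a helicase of translation initiation, belong to families with near-identical copies in the genome. Reads could have been shared with those copies or with other transcripts of the same gene, and the part of each was not tested. Ppia-201 had 9230.1 and 7332 expected counts and an IsoPct of 83.5 and 81.1, while the read-based table gave it 5400.3 and 4151 counts and 49.1% and 45.6% of the gene. Ppia-202, the leading protein_coding transcript of the gene, had 207 and 182 expected counts but 5689 and 5109 read-based ones. Eif4a2-210 had 5451 and 4909 expected counts against 1216 and 836 read-based counts. Its share of the gene was 43.3% and 42.0% by IsoPct and 9.26% and 6.24% in the read-based table. It has no base outside the protein_coding transcripts of its gene and no junction of its own.

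Against the protein_coding transcripts of their own genes, abundant decay-type transcripts were mostly a minority. A protein_coding transcript was annotated for the genes of 1056 of them. Their median IsoPct was 15.6 ± 0.117 (SD, n = 2), with quartiles of 7.79 and 29.1, while the highest protein_coding transcript of the same gene had a median of 38.1 ± 1.45. Summed over a gene, the median was 17.7% ± 0.106 for these decay-type transcripts, 58.7% ± 1.69 for protein_coding ones and 8.40% ± 1.59 for retained introns. An IsoPct under 10 in both mice was found for 303 and over 50 in both for 67. The distribution of these shares is plotted for all 1056.

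**Figure D1:**
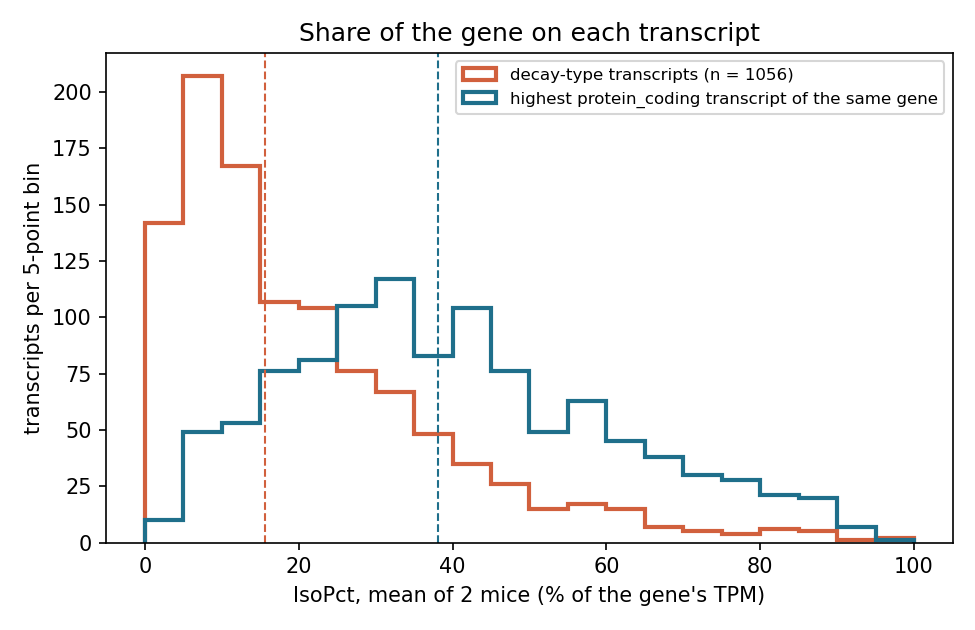
Number of transcripts (vertical axis) by IsoPct, the percent of the gene's TPM on the transcript, as the mean of 2 mice in bins of 5 points (horizontal axis), for 1056 decay-type transcripts and for the highest protein_coding transcript of the same gene. Dashed lines mark the medians of 15.6 and 38.1, and the decay-type transcripts have a tail above 50.

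A decay-type transcript led its gene, with a higher IsoPct than every protein_coding transcript in both mice, in 213 of 1056 cases (20.2%). In 157 cases it exceeded the protein_coding transcripts summed. Ndufa3-204, from a subunit gene of respiratory complex I, had the highest share among those above 500 counts, at 94.2% and 93.8% of its gene. It is 343 nt long, the shortest of the set, and the read-based table listed it at 0 in both mice. Rnf114-203, from a ubiquitin ligase gene, held 90.8% and 89.1%, with 813 and 751 expected counts and 552 and 494 read-based counts. Mnat1-203, from an assembly factor of the CDK-activating kinase, held 87.6% and 84.5%, and its read-based counts of 167 and 159 lay near the expected counts of 193 and 180.2.

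The other genes among the 10 highest shares have varied roles. Colec12-201, from a scavenger receptor gene, held 83.0% and 86.2% through an extra exon of 74 nt. Mmaa-202, from a gene of cobalamin metabolism, held 82.2% and 86.1%. Angptl4-202, from an inhibitor of lipoprotein lipase, held 90.4% and 87.2% at 86.3 and 59.2 counts. Nkx6-2-201, from a homeobox gene of the oligodendrocyte lineage, held 100% and 78.7% at 88.0 and 98.3 counts, an SD of 15.1 points between the mice. Mrps14-201, from a mitochondrial ribosomal protein gene, held 86.5% and 84.3%, but the read-based table gave it 25 counts in replicate 1 and listed it at 0 in replicate 2. The remaining 2 of the 10 highest, Gm45140-202 and Gm48551-202, held 100% in both mice at 57.7 to 127 counts, and no function is named for their genes.

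The lead over coding transcripts depended on the table for many genes. By read-based TPM, 196 decay-type transcripts led their gene, and 134 led in both tables. Of the 213 leaders, 30 (14.1%) had read-based counts over 2-fold lower in both mice, beside 14.3% of all 1077 and 12.4% of all transcripts, so leaders were near the background. Among the 213, 19 held under 10% of the gene in the read-based table. A single leader carried the APPRIS principal tag, which marks the main protein isoform of a gene. Leaders were not mainly longer transcripts: 71 of 213 were longer than the leading protein_coding transcript, and so were 287 of 843 others.

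A further 21 decay-type transcripts belong to genes with no protein_coding transcript. All 21 are tagged as readthrough transcripts, which run from one gene into the next, and 16 had an IsoPct of 100 in both mice because no other transcript of the gene had any TPM. The most abundant were Gm20716-201 with 1545 and 1569 counts, Gm42715-201 with 993 and 1141, and Gm20683-201 with 580.3 and 544. Their exons overlap those of the separate genes they join, so their reads could have been split with those genes. None of the 21 was over 2-fold lower in the read-based table in both mice.

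Genes of splicing regulators held abundant decay-type transcripts at larger shares than genes at large. Of 12582 protein-coding genes with at least 50 counts in both mice, 976 held one (7.76%). The same was found for 6 of 13 SR protein and Tra2 genes, 3 of 7 CLK and SRPK kinase genes, 8 of 28 hnRNP and PTB genes and 11 of 40 other splicing regulators. Only genes with an annotated decay-type transcript could hold one. Among those the shares were 6 of 11, 3 of 6, 8 of 16 and 11 of 21, beside 27.3% of 3580 genes at large. On this basis some other lists were as high, with 6 of 12 synaptic genes, 8 of 19 cytosolic ribosomal protein genes and 5 of 12 translation factor genes. Abundance moved with this share too: a decay-type transcript was found in 3.46% of genes with 50 to 500 counts and 9.69% with 500 to 2000. It was found in 12% with 2000 to 10000 and 12.7% from 10000 up. The median counts of the 4 lists of splicing regulators ran from 1638.5 to 3368.5 against 716 for genes at large. How far abundance and annotation account for the lists' shares was not tested.

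The 6 SR and Tra2 transcripts ranged from 106 to 520.2 counts. Srsf3-201 had 520.2 and 485 counts and held 19.4% and 20.3% of its gene, where the highest protein_coding transcript held 44.9% and 40.1%. Srsf6-201 had 419.6 and 468 counts and held 31.3% and 29.8%. Srsf9-205 was the 1 member of the list to exceed its coding transcripts, at 380 and 356 counts and 52.4% and 48.1% against 34.7% and 33.0%. The extra exons printed above thus came with a range of shares.

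For Tra2a-202 the counts were 218 and 202 (14.9% and 14.4% of the gene), and for Tra2b-206 106 and 135 (11.0% and 14.6%). Tra2a-202 was higher in the read-based table, at 527 and 616. Srsf1-204, from the founding SR protein gene, had 168 and 166 counts and 13.6% and 12.6% of its gene. Its stop falls in exonic sequence that is untranslated in the main transcript, 80 nt before the last junction, and no base of it is outside the protein_coding transcripts.

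Of the 7 kinases that phosphorylate SR proteins, 3 held an abundant decay-type transcript. Srpk2-204 had 3165 and 2934 counts and held 44.1% and 44.9% of its gene, above the highest coding transcript at 27.3% and 29.2%. Clk1-210 skips an exon of the main transcript. It had 657 and 454 counts and 37.3% and 29.7% of its gene, against 15.1% and 6.19% for the highest coding transcript. Srpk1-201, at 376 and 331 counts, held 22.2% and 20.1%, within 2 points of the highest coding transcript (20.5% and 21.3%). Read-based counts lay within 2-fold for all 3.

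**Figure D2:**
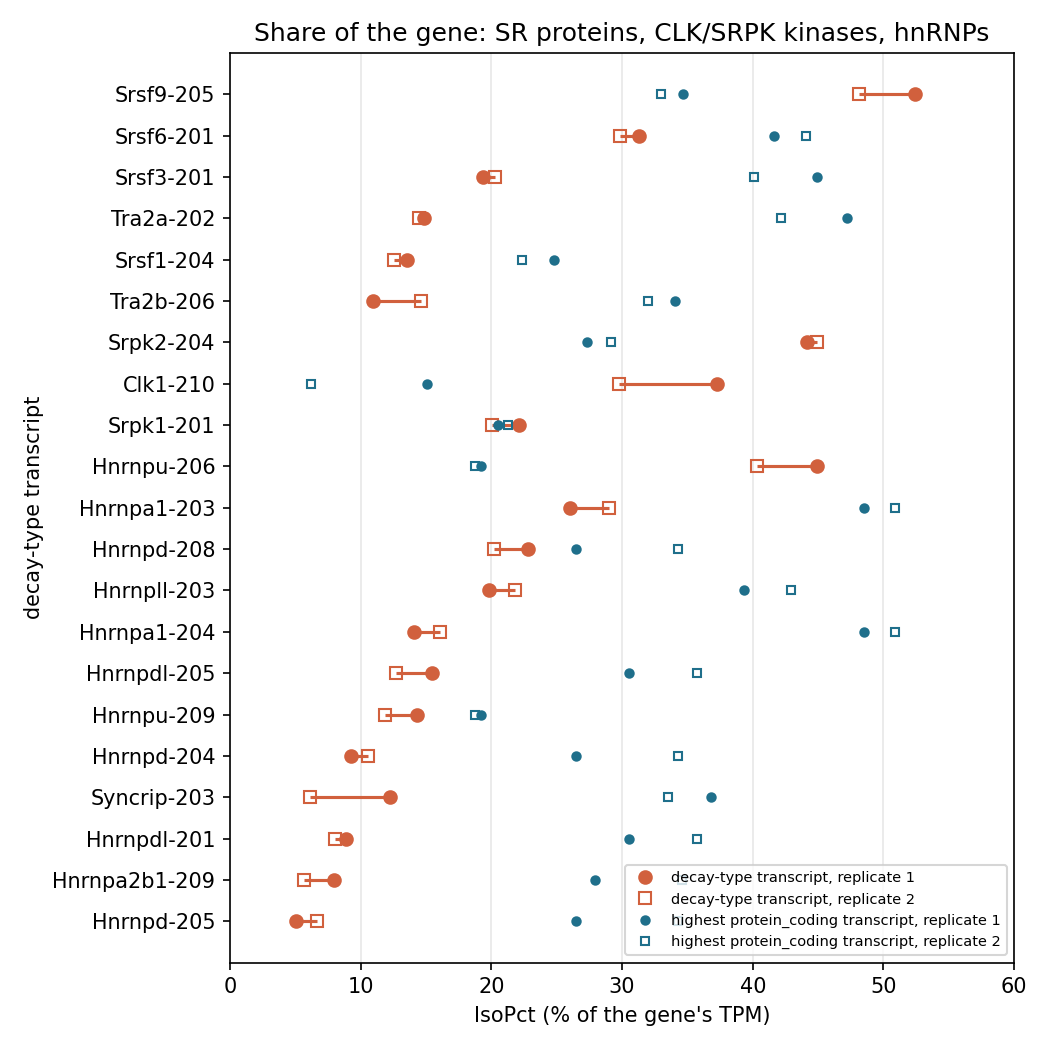
IsoPct (horizontal axis, percent of the gene's TPM) of decay-type transcripts of SR and Tra2 genes (6, top), CLK and SRPK kinase genes (3) and hnRNP genes (12, bottom), with each mouse as a point and a line joining the mice, beside the highest protein_coding transcript of the same gene. Srsf9-205, Srpk2-204, Clk1-210 and Hnrnpu-206 lie above their coding transcripts in both mice.

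In the hnRNP family, RNA-binding proteins that often repress exons, 8 genes held 13 decay-type transcripts. Hnrnpu-206 was the most abundant, with 4176 and 3917 counts and 44.9% and 40.3% of its gene, above the highest coding transcript at 19.2% and 18.7%. Hnrnpll-203 had 273 and 274 counts and held 19.9% and 21.8%. Hnrnpa1 gave Hnrnpa1-204 (776 and 916 counts) and Hnrnpa1-203 (561 and 647), which share the stop of the coding transcript. Hnrnpa1 has many near-identical pseudogenes, so its values are uncertain. Hnrnpd held 3 members with 474 and 564 counts in all.

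The tables disagreed for 4 of these 13 transcripts, which were over 2-fold lower by reads in both mice, beside 14.3% of all 1077 and 12.4% of all transcripts. Hnrnpa2b1-209 had 436 and 306 expected counts but was listed at 0 in the read-based table in both mice. It has no base outside the protein_coding transcripts of its gene and no junction of its own. Hnrnpu-209, only 351 nt long, had 122 and 106 expected counts and was also listed at 0.

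Other splicing regulators had lower shares: the median over the 14 transcripts of the list was 7.11%, beside 15.7% over all 1077. Qk-202, from the gene for the glial RNA-binding protein Quaking, had 1443 and 1417 counts and 8.45% and 9.14% of its gene. Celf2-228 had 1058 and 1070.3 counts and held 13.8% and 13.1%. Tardbp, which encodes TDP-43, held 3 members with 757 and 785 counts and 32.0% and 35.9% of the gene in all. TDP-43 is known to regulate its own RNA. Tia1-205, from an RNA-binding protein gene of stress granules, was lower by reads: it had 181 and 496 expected counts but was listed at 0 and 2.94 in the read-based table.

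Among 26 detected genes of the decay machinery and the exon junction complex, 1 held an abundant decay-type transcript (3.85%, beside 7.76% of genes at large). Among the 6 with such a transcript annotated the share was 16.7%, beside 27.3%. With 1 gene, no difference from the background is read. Its transcript was Gspt2-202, from a gene for a translation release factor, at 78.8 and 97.4 counts and 15.6% and 18.7% of its gene. Core spliceosome genes were also near the background, with 3 of 38. Of 27 genes known for decay-coupled splicing or as decay targets, 7 held an abundant decay-type transcript (25.9%, beside 7.76% of genes at large). Among the 17 with one annotated the share was 41.2%, beside 27.3%. The 7 genes held 8 transcripts, including Srsf3-201 and Tra2b-206 above. Among the others, Ptbp2-206, from the neuronal PTB gene, had 79.4 and 60.9 counts and 16.7% and 14.5% of its gene, and Odc1-205, from the first enzyme of polyamine synthesis, had 109 and 81.4 counts.

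Synaptic genes were more abundant than most (median gene count 13188.5). An abundant decay-type transcript was found in 6 of 45 (13.3%). The share was 7.76% of genes at large and 12.7% of the 361 genes from 10000 counts up. The 6 genes held 10 such transcripts, at a median of 5.25% of their genes. Nrxn3, a presynaptic adhesion gene, gave Nrxn3-208 with 1075 and 1249 counts and Nrxn3-213 with 736 and 516, both ending in the exon printed above. Dlg1-209, from a postsynaptic scaffold gene, had 899.9 and 869 counts and 12.3% and 12.7% of its gene. The glutamate receptor transcripts depended on the table. Gria3-206 had 1549 and 1257 expected counts but 75.6 and 0.00495 read-based counts, while Gria2-203 had 112 and 207 expected counts but 376 and 670 read-based ones.

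Of all 976 genes, 887 held 1 abundant decay-type transcript, 78 held 2 and 11 held 3 or more. Adarb1, which encodes the RNA-editing enzyme ADAR2, held 3 with 3652 and 3917 counts and 47.5% and 50.5% of the gene. The 3 of Agtpbp1, a tubulin deglutamylase gene, had 3126 and 2951 counts and 26% and 25.8% of the gene. Nrcam, a neuronal adhesion gene, held 3 with 2871 and 2968 counts and 24.1% and 24.2% of the gene. In these 3 genes the summed share moved by 3 points or less between the mice.

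Over all detected genes, housekeeping lists lay near the background of 7.76%. An abundant decay-type transcript was found in 8 of 82 cytosolic ribosomal protein genes, 6 of 86 respiratory chain and ATP synthase genes, 5 of 62 translation factor genes and 3 of 35 proteasome genes. Among genes with an annotated decay-type transcript the counts were 8 of 19, 6 of 21, 5 of 12 and 3 of 10, beside 27.3%. Ribosomal protein genes have many near-identical pseudogenes, and 7 of their 9 transcripts were over 2-fold lower in the read-based table in both mice. Rpsa-206 had 2610 and 2339 expected counts against 991 and 787 read-based. Rpl12-201, from a gene known to limit its own splicing, lay the other way: it had 357 and 257 expected counts and 737 and 468 read-based ones. Atp5f1-203 had 1135 and 1151 counts and held 39.8% and 45.6% of its gene, with 1055 and 1075 read-based counts.

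Where the stop lies was compared between each decay-type transcript and the leading protein_coding transcript of its gene, the one with the highest mean IsoPct. In 533 of 1077 (49.5%) the stop fell inside the coding exons of that transcript, and in 425 (39.5%) outside its exons. In 86 transcripts (7.99%) the stop was the same, in 11 it fell in untranslated exons, 21 had no coding transcript and 1 had no annotated stop. Over all 7186 decay-type transcripts, 54.3% had the stop inside the coding exons, 38.4% outside and 4.93% at the same place.

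Most stops inside coding exons came with a skipped exon or a moved splice site. The splice difference before the stop was a skipped exon in 216 of the 533, a moved splice site in 195, an added exon in 39, several differences in 66 and none in 17. The reading frame at the stop was shifted by 2 bases in 271 and by 1 base in 237, kept in 4 and not assigned in 21. A shifted frame is what the class implies, since a stop read in the frame of the coding transcript would end that transcript too.

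Stops outside the leading coding transcript lay in an extra exon in 191 of 425, in an extended exon in 137, beyond the ends of the coding transcript in 65 and in a retained intron in 32. The extra exons were 186 distinct exons of 18 to 1430.0 nt, with a median of 112 nt. By length, 71 of the 191 were a multiple of 3, 52 left a remainder of 1 base and 68 a remainder of 2. By length alone, those 71 exons would keep the reading frame of the coding transcript. Some leading coding transcripts are short fragments, such as Hnrnpd-210 at 493 nt, and against every protein_coding transcript of the gene the counts were 577 inside coding exons, 347 outside and 116 at the same stop.

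The annotated stop lay at least 50 nt before the last exon junction, the usual rule for the type, in 1073 of 1076 transcripts with a stop. The distance had a median of 600 nt and ran from 30 to 12430.0 nt. Among the less abundant decay-type transcripts the median was 308 nt, but those were also shorter, with a median length of 1018 nt against 2655 nt. A single junction after the stop was found in 203 (18.8%) and in 25% of the less abundant. The stop codon was TGA in 55.9%, TAA in 22.6% and TAG in 21.5%, beside 50.3%, 26.6% and 23.1% of protein_coding transcripts under the same count rule. Annotation at the 5′ end was incomplete for 199 (18.5%) against 28.9% of all decay-type transcripts.

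The second transcript table was quantified directly from the same reads, without the alignment, and gives another split of them. Of the 1077 transcripts, 868 (80.6%) also had at least 50 counts there in both mice. Read-based counts were over 2-fold lower in both mice for 154 (14.3%), beside 12.4% of all 26591 transcripts and 11.3% of protein_coding ones under the same count rule. They were over 2-fold higher for 80 (7.43%), beside 4.25% and 4.39%. The tables lay within 2-fold in both mice for 715 (66.4%), and the median log2 ratio of read-based to alignment-based count was 0.05 (0.04 and 0.08 in replicates 1 and 2). Among protein_coding transcripts 76.3% lay within 2-fold. At 50 to 200 counts, where most of the set lies, the shares were 61.2% and 65.3%. Spearman's rho across the 1077 transcripts was 0.710, a description over transcripts that share libraries and reads.

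**Figure D3:**
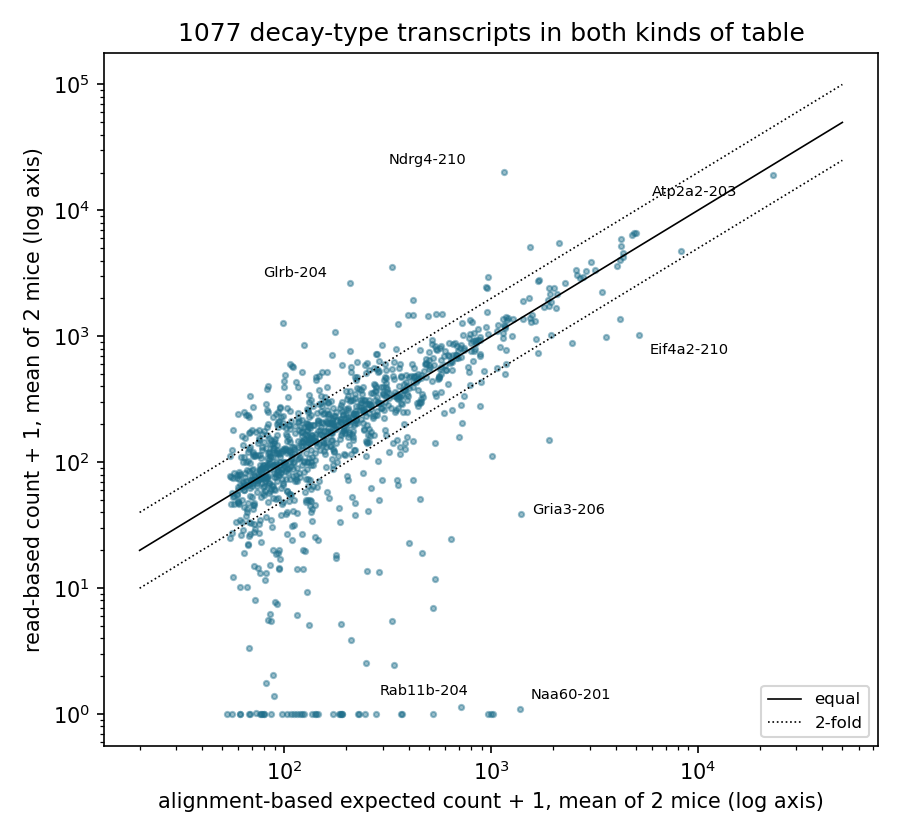
Read-based count plus 1 (vertical, log axis) against alignment-based expected count plus 1 (horizontal, log axis), each the mean of 2 mice, for 1077 decay-type transcripts as points, with lines for equal values and 2-fold differences. Most lie near the line of equal values, 44 lie along the bottom with under 1 read-based count in both mice, and Ndrg4-210 and Glrb-204 lie far above.

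On the TPM scale the split was different, with 8.26% lower and 14.2% higher. Beside this, 7.84% of all 26591 transcripts were lower and 8.51% higher. Among protein_coding ones the shares were 7.18% and 8.43%. That scale moved all 26591 transcripts up by a median of 0.45 log2 units, and the decay-type ones by 0.44. The side on which more decay-type transcripts disagree therefore changes with the scale.

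Disagreement went with how much sequence a transcript has of its own. Of the 440 transcripts with at least 100 exonic bases outside every protein_coding transcript of the gene, 4.55% were over 2-fold lower by reads and 78.2% lay within 2-fold. Of the 269 with 1 to 99 such bases, 19.0% were lower and 58.0% within. Of the 347 with none, 23.9% were lower and 57.6% within. All but 29 of the 347 have at least 1 splice junction that no protein_coding transcript of the gene holds. The groups also differed in length, with medians of 3172, 2413 and 2051 nt, and the parts of length and of own sequence were not tested.

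**Figure D4:**
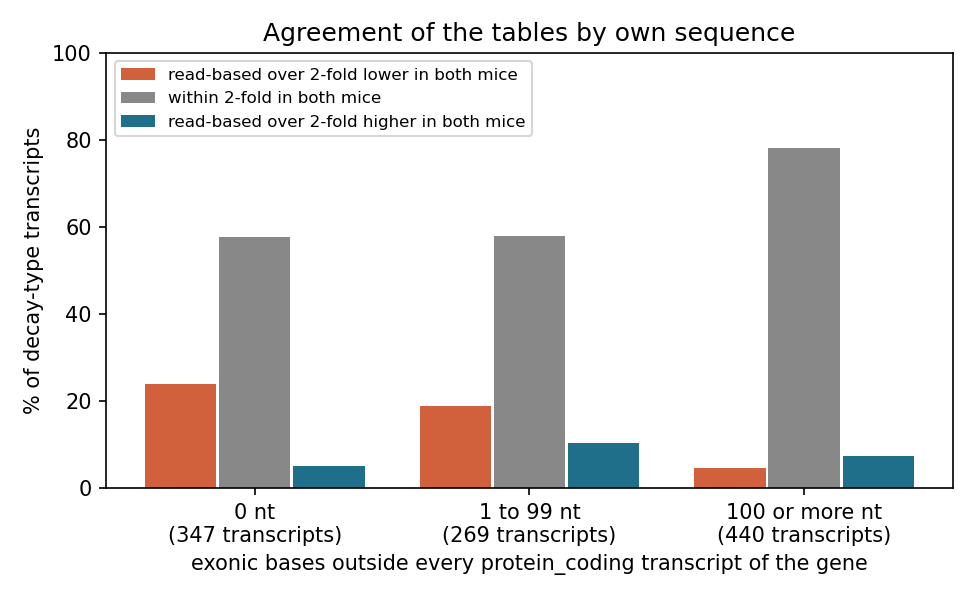
Percent of decay-type transcripts (vertical axis) whose read-based count was over 2-fold lower, within 2-fold or over 2-fold higher than the expected count in both mice, by the number of exonic bases outside every protein_coding transcript of the gene (horizontal axis). The share within 2-fold is 57.6% with 0 own bases, 58.0% with 1 to 99 and 78.2% with 100 or more.

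Short transcripts disagreed most, and equally so among coding ones. Under 600 nt, 63.2% of 38 decay-type and 65.8% of 459 protein_coding transcripts were over 2-fold lower by reads. At 2000 nt and above the shares were 9.66% and 7.40%. The deposited effective length, the number of positions a fragment can start from, fell short of the full length by a median of 99 nt where alignments were used and, in replicates 1 and 2, by 344 and 340.1 nt where reads were used. Its part in the result was not tested.

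The largest disagreements involved transcripts that were listed at or near 0 by reads. Naa60-201, from an acetyltransferase gene of the Golgi, had 1473 and 1279 expected counts and 0.0515 and 0.132 read-based ones, and held 65.1% and 56.4% of its gene by IsoPct. Rab11b-204, from a recycling endosome GTPase gene, had 979.9 and 947 expected counts and was listed at 0. Sez6-208, from a neuronal surface protein gene, had 823 and 608 expected counts and 0.281 or fewer read-based ones, and Unc80-202, from a sodium leak channel gene, had 522 and 519 and was at or near 0. None of these 4 has a base outside the protein_coding transcripts of its gene. A value at 0 in such a table can be an estimate that gave all shared reads to other transcripts.

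In the other direction Ndrg4-210, from a gene highly expressed in neurons, had 1229 and 1068 expected counts and 22001 and 18109.5 read-based counts. Ttyh1-201, from a chloride channel family gene of astrocytes, had 278 and 381 against 3576 and 3524. Glrb-204, from the beta subunit gene of the glycine receptor, had 118 and 297 against 2601 and 2701. Grik5-207, from a kainate receptor gene, had 162 and 188 against 979 and 1172. By IsoPct these 4 held 1.79% to 6.40% of their genes.

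The deposited TPM intervals of the alignment-based tables, whose level is not stated in the sources used here, were wide for decay-type transcripts. Their median width was 71.7% ± 0.702 of the TPM, against 37.9% ± 0.518 for protein_coding transcripts under the same count rule. The interval was wider than the TPM itself in both mice for 241 (22.4%) and for 9.58% of protein_coding ones. The sets differ in count. A mean count of 50 to 200 was found for 642 of 1077 decay-type and 6191 of 19163 protein_coding transcripts. A mean above 1000 was found for 71 and 4839. Widths were not compared at matched counts, and the part of count was not tested. Among decay-type transcripts with at least 100 own bases the median width was 61.8% ± 1.60, and with none 81.0% ± 2.37.

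Between the mice, most decay-type transcripts were close. After TMM scaling, which aligns the libraries on the bulk of genes, 67 (6.22%) differed by over 1 log2 unit, beside 3.63% of all 26591 transcripts and 3.56% of protein_coding ones. Of these, 36 were higher and 31 lower in replicate 2, beside 1.99% and 1.63% of all transcripts. With scaling to the spike-in RNAs the split was 129 higher and 10 lower. The median log2 ratio of all 1077 was then 0.43, against 0.03 with TMM scaling. Each scaling divides a whole library by 1 factor, so the change of scaling moved all transcripts nearly alike, not only decay-type ones. The share over all 26591 transcripts was not computed for spike-in scaling. The deposited intervals of the mice overlapped for 1029 (95.5%) of all 1077 and for 60 of the 67.

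**Figure D5:**
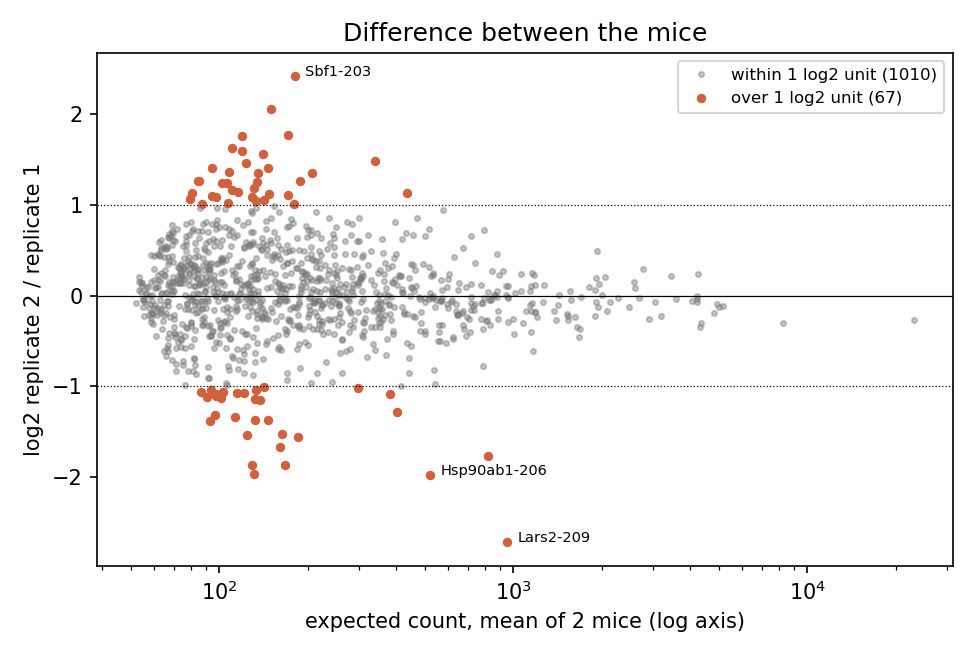
Log2 ratio of replicate 2 to replicate 1 after TMM scaling (vertical axis) against the mean expected count (horizontal, log axis) for 1077 decay-type transcripts as points, with the 67 that differ by over 1 log2 unit in colour. The spread narrows with the count, and none of the 71 above 1000 counts passes 1 log2 unit.

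Differences were concentrated at low counts. Of the 67, 58 had a mean count of 50 to 200, where 9.03% of decay-type and 5.99% of protein_coding transcripts differed. From 200 to 1000 the shares were 2.47% and 3.42%. The total of the gene differed by under 0.5 log2 units for 63 of the 67, and 30 of the 67 differed the same way in the read-based table. In bulk tissue, fewer cells of a type and less RNA per cell cannot be told apart.

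Lars2-209, from the gene for mitochondrial leucyl-tRNA synthetase, differed the most. It had 1661 expected counts in replicate 1 and 246 in replicate 2, and 3799 and 1051 read-based counts. Its share of the gene was 72.5% and 21.5%, while the highest coding transcript held 22.3% and 60.2%. The gene total was lower in replicate 2 as well, by a log2 ratio of -1.06, so both the gene and its split differed. Hsp90ab1-206, from a chaperone gene with near-identical copies, had 837 and 207 counts but was listed at 0 and 11.9 by reads.

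Ylpm1-203 was lower in replicate 2 in both tables, at 265 and 70.7 expected counts and 467 and 147 read-based ones. Sbf1-203, from a phosphatase-like regulator gene, was the most raised in replicate 2, at 57.9 and 305 counts, with 99.7 and 297 by reads. Gga3-212, from a clathrin adaptor gene, had 55.0 and 184 counts, with 55.5 and 214 by reads. In these 3 genes the log2 ratio of the gene total was between -0.02 and 0.12. With 1 library per mouse these differences have no replicate check.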

How the data were processed

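For each library the deposited files are alignment-based gene and transcript tables and a transcript table made directly from the reads, both built on mm10 and the GENCODE M21 annotation, as the listing with them states. Which aligner and programs made them was not given in the sources used here. Deposited expected counts and estimated counts are reads assigned per transcript, fractions included and not normalized, per the file headers. The deposited TPM is scaled to transcript length and library, and the deposited IsoPct is the percent of the gene's TPM on a transcript, per the file headers. Read-based rows for spike-in RNAs were dropped.

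Transcript types came from the read-based identifiers. Stops, exons and sequences came from the GENCODE M21 annotation. The leading protein_coding transcript was the one with the highest mean IsoPct. Ratios between the tables used a pseudocount of 1 and counted as different over 2-fold in both mice. Ratios between the mice used a prior count of 0.5 and TMM scaling (edgeR 4.0.16, R 4.3.3), with expected counts rounded for that step only, and counted as different over 1 log2 unit. Python 3.11.15, pandas 2.3.3, numpy 2.4.6 and scipy 1.17.1 did the rest, with figures from matplotlib 3.10.9. The structure and ratio steps were tested on simulated data first.

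The set, gene lists and named transcripts were chosen with earlier results of these data known. Named were the 10 most abundant, the 10 highest shares, list members (up to 12 or 5 a list), the 8 largest table differences each way, the 5 largest mouse differences each way and 3 on each side of the threshold. Some transcripts that these rules select are not reported here but remain in the counts. Alternatives tried were other count minimums, pseudocounts, scalings (library totals, spike-ins, DESeq2 1.42.0 size factors), read-based values, each mouse alone, transcripts with at least 100 own bases and every protein_coding transcript as reference.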

Additional observations from a re-analysis of the deposited data

How the results depend on the processing

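The set depends on its threshold: a minimum expected count of 20, 100 or 200 gave 1706, 655 or 384 transcripts instead of 1077. The median share of 15.6% became 13.7% with read-based TPM, 13.6% with shares of expected counts, 12.2% among transcripts with at least 100 own bases and 24.1% at a minimum of 200. The share over 2-fold lower by reads, 14.3%, became 13.5% with a pseudocount of 10, 8.26% on TPM, 13.3% at a minimum of 200 and 4.55% with at least 100 own bases. It was 17.1% to 18.0% when each mouse was left out in turn. The share over 2-fold higher, 7.43%, became 6.96%, 14.2%, 5.73% and 7.27% under the same 4 settings and 10.03% to 10.2% with a mouse left out. The median log2 ratio of 0.05 became 0.44 on TPM and 0.18 with at least 100 own bases, and was 0.038 to 0.077 with a mouse left out. Between the mice, 3.34% higher and 2.88% lower in replicate 2 became 11.98% and 0.929% with spike-in scaling, 7.15% and 5.11% by read-based counts, and 0.260% and 1.30% at a minimum of 200. At a minimum of 100, core spliceosome genes with a decay-type transcript fell from 3 to 1, decay machinery genes from 1 to 0 and ribosomal protein genes from 8 to 4. Apart from these, the alternatives tried moved no count by over 1.5 times and no other value by more than its spread. Leaving out a mouse could only raise the shares over 2-fold lower or higher by reads, since the call then needs 1 mouse and not both. The cause was not tested for the other shifts, beyond the smaller sets that a higher minimum leaves. No paired analysis was possible because both mice belong to 1 group. Depth limits the low end: 321 transcripts have a mean count under 100.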

Other observations

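By the read-based table alone, 1391 decay-type transcripts had at least 50 counts in both mice. Of these, 868 are in the set described above, which is 62.4% of the read-based set and 80.6% of the alignment-based one, and 523 are not. The tag for a transcript not supported by evidence from its own organism was carried by 137 of the 1077 (12.7%), and by 13.3% of all decay-type transcripts. The tag for alternative acceptors 1 codon apart, NAGNAG_splice_site, was carried by 21 of the 1077 (1.95%) and by 1.84% of all.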
